A study of Homo sapiens with 4 samples.

Results

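RNA that came down with an EXOSC10 antibody was set against RNA that came down with control IgG from the same untreated cells, gene by gene. The pair consists of 2 of the 4 libraries of the series, 1 for each antibody, and every gene outside the ribosomal RNA genes was taken. The table held 12820 such genes, and 3597 of them had at least 100 estimated reads in the pair and are called the genes tested. The other 9223 genes had fewer reads and are given only as totals.

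The cells were LM2-4175, a lung-metastatic derivative of the human MDA-MB-231 breast carcinoma line. All cells of the series, the untreated ones included, stably carried a doxycycline-inducible construct of CerS4, a ceramide synthase, and were grown under puromycin and hygromycin. The untreated cells received no doxycycline. The other pair of libraries, EXOSC10 and IgG from cells given doxycycline at 5 µg/mL for 48 h, is used below only beside this one and shares no library with it. The study asked how the PD-L1 and Caprin-1 complex bears on mRNA degradation when lipid metabolism is altered, and IgG served as its control. No label says whether the construct was carried by 1 clone or many, and no input library, taken before immunoprecipitation, was analysed here.

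EXOSC10 is the distributive 3′ to 5′ exoribonuclease of the nuclear RNA exosome and is concentrated in the nucleolus. The exosome trims ribosomal RNA and small nucleolar RNA precursors and degrades faulty or short-lived nuclear transcripts. It is helped by the helicase MTR4 (gene MTREX) in complexes such as NEXT and PAXT. In an RNA immunoprecipitation the antibody recovers its protein with the RNA attached, directly or through other proteins. Control IgG recovers RNA that sticks to the beads, the antibody or the tube. A ratio of EXOSC10 over IgG therefore compares the composition of 2 recovered RNA pools, and it holds neither the amount of RNA recovered nor the level of a transcript in the cell.

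Most reads of both libraries lay on ribosomal RNA genes, 71.7% with IgG and 75.8% with EXOSC10. This left 1052991 reads on other genes with IgG and 1023363 with EXOSC10, so the pair was nearly balanced. The mesenchymal markers of the line were present: all 11 had reads in the IgG library, led by VIM with 2893 reads and MSN with 1593, and they summed to 6295 reads with IgG and 5417 with EXOSC10. S100A4 had 4 reads and no read. Of 8 luminal breast markers, ESR1 and EPCAM had no entry analysed here, and the 6 others summed to 285 and 634 reads, mostly KRT19 with 205 and 411. Of 8 blood and immune markers only CD68, a lysosomal protein, and LYZ had an entry, 28 and 145 reads together. Of 8 fibroblast and endothelial markers COL3A1 and PECAM1 had one, 13 and 35 reads. No values for CERS4 or for CD274, the gene of PD-L1, were analysed here, and the state of the construct was therefore not checked.

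Ratios are log2 of the EXOSC10 value over the IgG value, in CPM (reads scaled to a library total of 1000000) plus 0.2, minus the median of the genes tested, so that 0 stands for the median gene of the pair. This zero is used because the usual scalings disagree on it: the median gene lay at 0.33 with total reads, at 0.55 with the total of reads outside ribosomal RNA and at -0.49 with trimmed-mean factors. The order of the genes is the same under each of these. A gene is counted as above or below when its ratio is at least 1, that is 2-fold, from the median gene. The EXOSC10 side and the IgG side mean over and under this zero. Read numbers are estimates, given with IgG first and EXOSC10 second. The ratio follows in brackets, with its 95% Clopper-Pearson interval from the estimated reads where 3 values stand there; the intervals cover counting error only. With 1 library a side there is no replicate check and no test, and each count below describes these 2 libraries.

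The EXOSC10 and IgG libraries differed in RNA composition by more than counting error, and the antibody cannot be told apart from variation between single libraries. Of the 3597 genes tested, 648 lay above the median gene, which is 18.0%, and 866 lay below it, which is 24.1%. The standard deviation of the ratios was 1.09, and the upper quartile stood 3.45-fold over the lower one. The counting interval did not reach the median gene for 2814 genes (78.2%), while an interval reached a median of 0.43 to either side of its ratio. The genes did not form a single hump. In steps of 0.25 the fullest bin under 0 was that from -1.25 to -1, with 278 genes, and the fullest over 0 that from 0.75 to 1, with 363 genes, while the bin from -0.25 to 0 between them held 207.

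**Figure D1:**
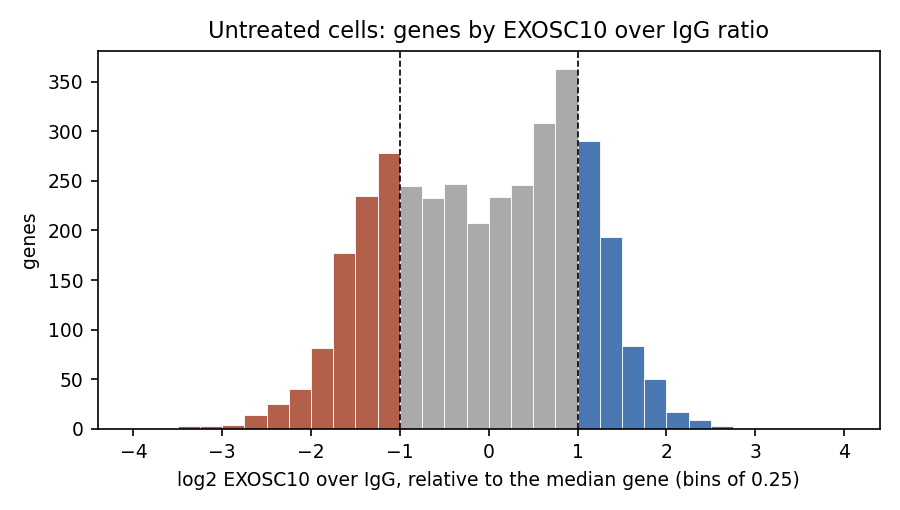
Number of genes tested (vertical axis) by log2 ratio of EXOSC10 over IgG relative to the median gene (horizontal axis, bins of 0.25) in untreated cells, with 1 library for each antibody. Dashed lines mark 2-fold; bins below -1 are red and bins from 1 up are blue. There are humps on both sides of 0, with 278 and 363 genes in their fullest bins; 5 genes below -4 (VIM-AS1, DLG4, POTEJ, DNM1 and TMEM243) are outside the axis.

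The IgG pool was more concentrated on its leading genes than the EXOSC10 pool. The 10 genes with most reads took 14.5% of the reads outside ribosomal RNA with IgG and 6.82% with EXOSC10. The 866 genes below the median gene held 636348 IgG reads, or 60.4% of them, against 303122 EXOSC10 reads, or 29.6%. The 648 genes above it held 3.41% of the IgG reads and 12.5% of the EXOSC10 reads. Both groups were picked by the ratio of EXOSC10 over IgG, so the direction of these shares follows from that choice. The EXOSC10 library reached more genes: 11361 had a read against 10517 with IgG, and the 9223 genes under the minimum took 18.5% of its reads against 8.27%. Among those low genes 1316 had reads with EXOSC10 only and 471 with IgG only, 971 had no read in either, and their reads summed to a ratio of 0.61. Every entry reached at least 10.0 reads in a library of the series. The doxycycline EXOSC10 library held most reads outside ribosomal RNA, 2408179. Genes may thus have an entry through an EXOSC10 library, and the effect on these counts was not tested.

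The ratio fell with the number of reads in the pair, called abundance here. Divided by reads in the pair into 5 classes of equal size, the genes tested had median ratios of 0.51, 0.38, 0.11, -0.30 and -1.06 from the fewest reads to the most. In the lowest class 209 genes lay above and 61 below; in the highest class 42 lay above and 385 below. The Spearman correlation of ratio and reads was -0.37, given as a description, since both come from the same reads. A gene list's position thus has to be read beside its abundance. Lists with at least 5 genes tested are therefore also given against the median of genes in the same class by reads, a value added after the data were seen and called the matched median. Counts in a list are to be read beside the 18.0% above and 24.1% below of all genes tested. Part of the scatter at few reads is counting error. The zero itself moves with the minimum: with 500 reads, 693 genes remained and their median lay at -1.07.

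**Figure D2:**
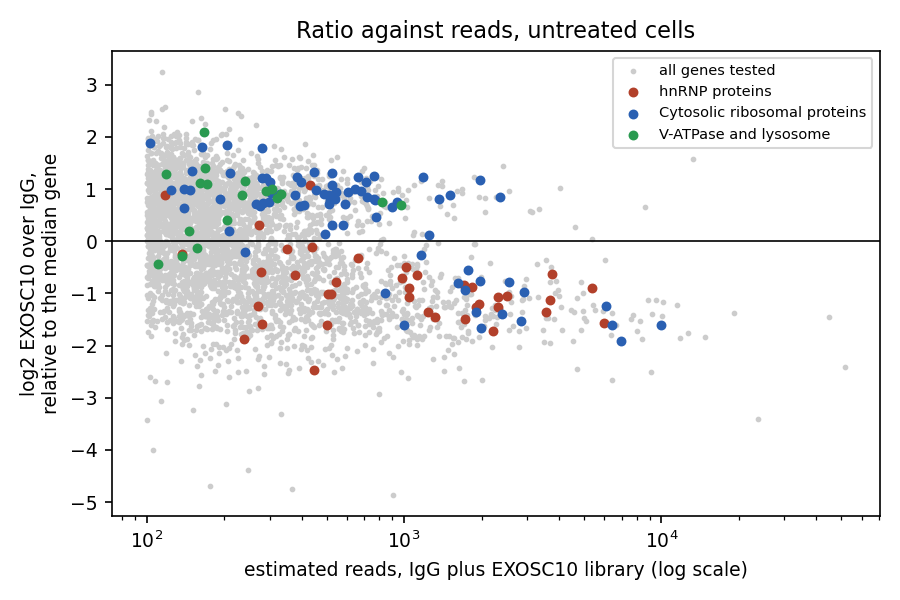
Log2 ratio of EXOSC10 over IgG relative to the median gene (vertical axis) against the estimated reads of both libraries together (horizontal axis, log scale) in untreated cells. Each point is 1 gene. Grey points are the genes tested (VIM-AS1, with no EXOSC10 read, is outside the axis). Red points are the 38 entries tested of the hnRNP list. Blue points are 76 cytosolic ribosomal protein genes and green points 18 V-ATPase and lysosome genes. The hnRNP genes lie mostly below 0, as do other abundant genes, whereas ribosomal protein genes lie above and below it.

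Cytosolic ribosomal protein mRNAs lay on both sides of the median gene. These mRNAs are abundant, short and regulated together in translation through a pyrimidine tract at their 5′ end. All 82 genes of the list had an entry and 76 were tested. Of these 20 lay above the median gene and 9 below, with 58 over 0, 18 under 0 and a median of 0.80; the matched median was 1.32. Here the genes over 0 are called the upper band and those under 0 the lower band. The side of each band's summed ratio follows from this cut. The upper 58 had 103 to 2354 reads in the pair, with a median of 490. They summed to 8968 reads with IgG and 23494 with EXOSC10, a ratio of 0.88. The lower 18 had 240 to 9938 reads, with a median of 1979, and summed to 34769 and 19615 reads, a ratio of -1.34. So the lower band held most ribosomal protein reads of the IgG library.

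Whether the annotated start of the mRNA sets the bands apart was looked at in RefSeq promoter sequences (GRCh38.p14), which were found for 60 of the 76 genes. A tract was counted where a C followed by at least 4 pyrimidines began within 5 bases of the annotated start. The comparison rests on the tract counts of both bands, given after the sequences. The first bases of 4 low and 4 high genes are shown as examples only. These genes need not be the extremes of the 60. Each sequence is 30 bases on the coding strand, 5′ to 3′, and capitals mark the tract. The first 4 lie in the lower band: RPL37A at chr2:216498834-216498863 (+), RPS10 at chr6:34426050-34426079 (-), RPS27 at chr1:153990752-153990781 (+) and RPL15 at chr3:23916535-23916564 (+). The next 4 lie in the upper band: RPS9 at chr19:54200848-54200877 (+), RPS29 at chr14:49598691-49598720 (-), RPS21 at chr20:62387093-62387122 (+) and RPS28 at chr19:8321486-8321515 (+).
RPL37A: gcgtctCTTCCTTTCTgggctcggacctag
RPS10: catgctCCTTCCTTTCCagccccggtaccg
RPS27: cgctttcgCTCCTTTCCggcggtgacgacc
RPL15: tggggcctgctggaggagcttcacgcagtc
RPS9: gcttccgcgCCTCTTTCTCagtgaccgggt
RPS29: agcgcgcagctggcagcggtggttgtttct
RPS21: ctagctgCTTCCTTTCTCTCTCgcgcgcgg
RPS28: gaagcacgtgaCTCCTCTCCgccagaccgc
Tracts stood in both bands. They were found in 12 of 14 lower genes (85.7%) and in 37 of 46 upper genes (80.4%), and the median ratio was 0.79 with a tract and 0.89 without. RPL15 and RPS29 show none in this window, which says only that the letters are not there at the annotated start. Such a tract stood in 21.1% of all 27305 RefSeq promoters and in 24.5% of the promoters of genes tested.

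RPL37A, at the bottom of the list, had 5064 reads with IgG and 1924 with EXOSC10, a ratio of -1.91 (-1.99 to -1.83). RPL15 had 6760 and 3178 reads (-1.60), RPS27 679 and 317 (-1.61), and RPS10 1367 and 617 (-1.66). RPLP0, of the ribosomal stalk, had 3778 and 2293 reads (-1.23). At the top, RPS28 had 16 and 87 reads (1.88, 1.15 to 2.80) and RPS21 33 and 172 (1.84, 1.32 to 2.45). RPS9 had 97 and 351 reads (1.33), and RPS6, the substrate of S6 kinase, 119 and 336 (0.98). The lowest and the highest genes were picked by this ratio, so the distance between their intervals follows partly from that choice. In the doxycycline pair 17 of the 18 lower genes and 53 of the 58 upper genes lay on the same side of that pair's median gene.

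**Figure D3:**
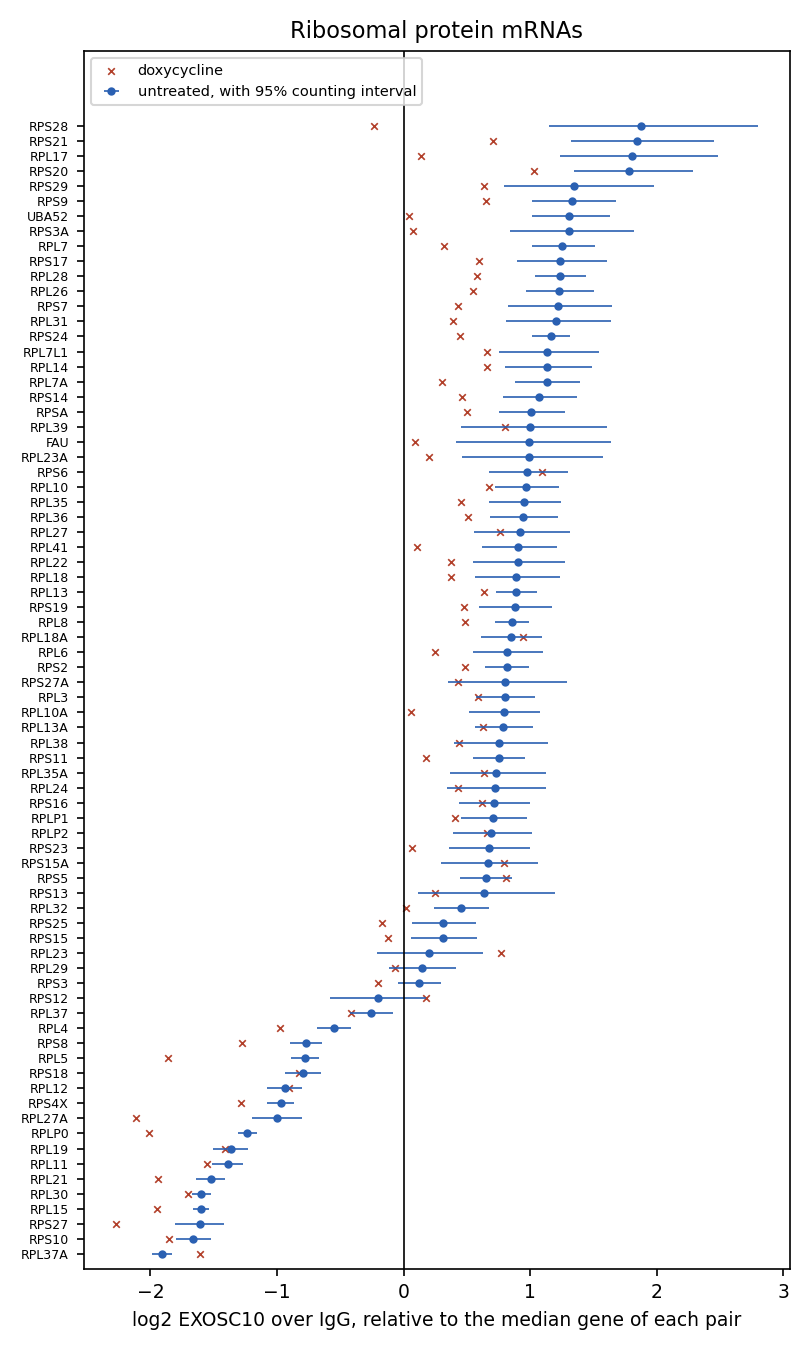
Log2 ratio of EXOSC10 over IgG (horizontal axis, relative to the median gene of each pair) for the 76 cytosolic ribosomal protein genes tested, 1 row each, ordered by the untreated value. Blue points with bars are the untreated pair with 95% counting intervals; red crosses are the doxycycline pair, with 1 library a side in both. The 18 genes under 0 reach -1.91 and the 58 over 0 reach 1.88.

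Other parts of the translation machinery were spread as widely. Translation initiation factors had 31 genes tested, 5 above and 10 below, with a median of -0.39 and a matched median of 0.02. EIF4G2, a scaffold related to eIF4G, had 10571 and 4238 reads (-1.83, -1.88 to -1.78), and EIF5A, which helps ribosomes past difficult peptide bonds, 8897 and 3757 (-1.76). The cap-binding factor EIF4E had 498 and 345 reads (-1.04). EIF3H, an eIF3 subunit, stood at the other end with 63 and 279 reads (1.62). The elongation factor EEF1A1 had 29404 and 15315 reads (-1.45, -1.48 to -1.43), whereas its paralog EEF1A2 had 80 and 363 (1.66, 1.32 to 2.04). EEF2, which moves the ribosome along the mRNA, lay at the median gene with 2189 and 3197 reads (0.03). Paralogs of the same function thus lay on both sides.

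Aminoacyl-tRNA synthetases, which load tRNAs with amino acids, were mostly high: 7 of 16 lay above and 1 below, with a median of 0.85 and a matched median of 0.80. IARS1 had 26.6 and 206 reads (2.41, 1.86 to 3.08), with fractions of reads. MARS1 had 40 and 169 reads (1.55). VARS1 was the member below, with 643 and 293 reads (-1.64). Mitochondrial ribosomal proteins had 11 genes tested of 75, 4 above and none below, with a median of 0.88 and a matched median of 0.43. Of these MRPL37 is uncertain, since it overlaps SSBP3 and its ratio of 2.01 became -0.17 with their reads summed. MRPL9 had 16 and 91.8 reads (1.96). Ribosome biogenesis factors had 6 of 20 above and none below (median 0.59, matched 0.53), with the 3′ tRNA processing nuclease ELAC2 at 1.95 and the nucleolar chaperone NPM1, 552 and 400 reads, at -0.98.

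mRNAs of RNA-binding proteins lay on the IgG side. The poly(A) and poly(C) binding proteins had 10 genes tested, all under 0 and 6 of them below, with a median of -1.21 and a matched median of -0.54. PCBP2, a poly(C) binding protein at chr12:53452102-53481162, had 20883 reads with IgG and 2822 with EXOSC10, a ratio of -3.40 (-3.46 to -3.34), or 10.6-fold below the median gene. PABPC1, the main cytoplasmic poly(A) binding protein (chr8:100702916-100722088), had 40650 and 10924 reads (-2.41, -2.44 to -2.38). PABPC3 had 5236 and 1178 reads (-2.66); it is a retrocopy of PABPC1, and since reads of near-identical copies may be divided between them its value is uncertain. PCBP1 had 2803 and 1878 reads (-1.09), and PABPC4 183 and 218 (-0.26). PABPC1, EEF1A1 and PCBP2 were the 3 genes tested with most IgG reads, and all 3 lay on the low side.

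The hnRNP proteins, which package and splice nascent transcripts, had 38 genes tested, 20 below and 1 above, with a median of -1.02. Their median abundance was 1031 reads, and the matched median was -0.01, with 18 genes over and 20 under. The list's median was thus close to that of genes in the same class by reads. Transcript abundance in the cell was not measured. The 20 genes below include HNRNPUL2-BSCL2, a read-through entry that overlaps HNRNPUL2, and the copies HNRNPA1L2 and HNRNPA3P1. Reads may be divided between these and related genes, so the 20 are not all separate protein genes. HNRNPK had 4012 and 1943 reads (-1.56, -1.64 to -1.48). The paraspeckle protein PSPC1 had 357 and 90.8 reads (-2.48, with overlapping MPHOSPH8 summed -2.09). HNRNPH2 had 172 and 66.2 reads (-1.88), which became -0.57 with its read-through partner summed. PTBP1, the polypyrimidine tract binding repressor of splicing, was the gene above, with 107 and 324 reads (1.08). The SR and core spliceosome list stood closer to the median gene, with a median of -0.36 (matched 0.00). It had 44 tested, 5 above and 10 below, against 18.0% and 24.1% of all genes tested. There SNRPA of the U1 particle lay at 1.67 with 21 and 98 reads and SNRPE, a core Sm protein, at -1.96 with 133 and 48.

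Stress granule proteins, the group of Caprin-1, had 20 genes tested, 11 below and 1 above, with a median of -1.02 at a median of 702 reads and a matched median of -0.19. CAPRIN1 itself, at chr11:34051731-34102610, had 826 reads with IgG and 499 with EXOSC10, a ratio of -1.24 (-1.40 to -1.08), or 2.36-fold below the median gene. That position depends on the zero: with total reads the ratio was -0.91, short of 2-fold, and against genes of its own class by reads, which was the highest, it was -0.17. Its partners of the G3BP family lay apart from each other: G3BP1 had 53 and 177 reads (1.21, 0.78 to 1.70) and G3BP2 320 and 214 (-1.09, -1.35 to -0.84). The ubiquitin-associated protein UBAP2L had 1512 and 784 reads (-1.46), TIAL1, which nucleates granules, 348 and 164 (-1.59), and YBX1, a cold-shock mRNA packaging protein, 5353 and 3518 (-1.12).

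Other mRNA regulators showed the same side. The m6A writers and readers, which place or bind the methyl mark on mRNA, had 8 genes tested, all under 0 and 6 below, with a median of -1.10 (matched -0.74). WTAP of the writer complex had 511 and 246 reads (-1.56), and the reader YTHDF3 542 and 272 (-1.51). Proteins that bind AU-rich or zipcode elements had 6 of 12 below and none above, with a median of -0.97 (matched -0.39). The repressor PUM2 had 852 and 347 reads (-1.81), and ZFP36L2, which calls deadenylases to AU-rich mRNAs, 513 and 252 (-1.54). DEAD and DEAH box helicases had 9 of 23 below and 2 above (median -0.48, matched -0.40). Of those, the export helicase DDX39B had 1131 and 409 reads (-1.98), while its near relative DDX39A had 26 and 83 (1.14).

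mRNAs of cytoplasmic decay factors lay mostly on the IgG side, and those of the exosome were barely measured. Cytoplasmic decay factors had 20 genes tested, 4 above and 9 below, with a median of -0.80 and a matched median of -0.65. CNOT1, the scaffold of the main deadenylase, had 1048 and 577 reads (-1.37), the decapping co-factor PATL1 279 and 150 (-1.40), and LSM3 149 and 68 (-1.63). LSM4 of the same Lsm ring went the other way with 39 and 136 reads (1.27), as did the deadenylase PAN2 with 28 and 108 (1.40). In nonsense-mediated decay, 3 of 9 genes lay below and none above, but the median was 0.27 (matched 0.44), with UPF2 at -1.48 (116 and 59 reads) and the helicase UPF1 at 0.94 (78 and 214 reads).

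None of the 13 RNA exosome genes with an entry reached 100 reads in the pair. EXOSC10 mRNA, the transcript of the antibody's own target, had 6 reads with IgG and 15 with EXOSC10, with an interval from -0.64 to 2.46 that does not set it apart from the median gene. DIS3, the processive nuclease, had 26.7 and 63.5 reads (0.71, 0.06 to 1.44), EXOSC3, a cap subunit, 36 and 8 (-2.57, -4.0 to -1.55), and EXOSC6, a ring subunit, 10 and 46 (1.61, 0.68 to 2.84). The 13 summed to 161 and 295 reads, a ratio of 0.36 (0.08 to 0.65). The reads of all 9223 genes under the minimum summed to 0.61, inside that interval. Nuclear cofactors of the exosome had 10 of 20 genes tested, 2 above and 1 below, with a median of -0.21 (matched -0.08). The cap-binding protein NCBP2 had 21 and 121 reads (1.97, 1.34 to 2.76), and ZC3H18, which links the cap to the NEXT complex, 38 and 117 (1.09). ZC3H14, a poly(A) binding zinc finger protein, had 782 and 368 reads (-1.60), and the nuclear poly(A) binding protein PABPN1 410 and 295 (-0.98). MTREX, at 35.8 and 43.8 reads, was under the minimum (-0.22, -0.89 to 0.46).

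**Figure D4:**
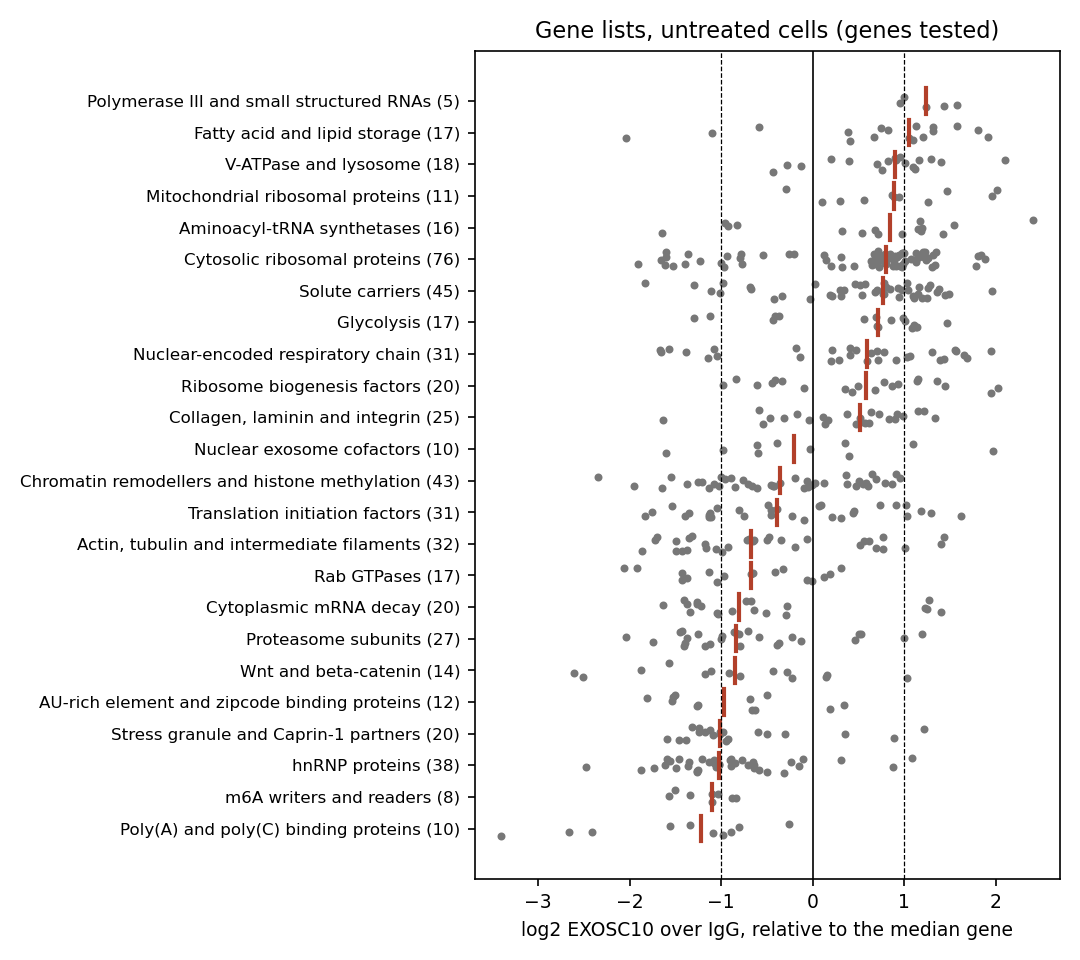
Log2 ratio of EXOSC10 over IgG relative to the median gene (horizontal axis) for 24 of the gene lists in untreated cells, with the number of genes tested in brackets and 1 library for each antibody. Each grey point is 1 gene, red bars are list medians and dashed lines mark 2-fold. Medians run from -1.21 for poly(A) and poly(C) binding proteins to 1.24 for polymerase III RNAs, and most lists spread across 0.

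Non-coding RNAs known from the nucleus stood on the EXOSC10 side. All 4 nuclear long non-coding RNAs tested lay over 0, 3 of them above, with a median of 1.09. MALAT1, of nuclear speckles, had 427 and 1435 reads (1.23, 1.08 to 1.39), NEAT1, the core of paraspeckles, 336 and 1065 (1.15, 0.97 to 1.33), the imprinting transcript KCNQ1OT1 34 and 100 (1.02, 0.47 to 1.65), and TUG1 89 and 237 (0.89). MALAT1 overlaps its antisense TALAM1, and the summed ratio was 1.12. Of the small nucleolar RNA host genes 3 of 22 were tested, with SNHG29 at 1.44 (62.8 and 245 reads), or 0.96 with LRRC75A summed. Only 14 of 660 entries classed as long non-coding RNA had 100 reads, 5 of them above and 4 below, so the class as a whole was mostly out of reach. None of 175 LINC-named genes and none of 9 microRNA host genes did. The 4 long non-coding entries below all overlap other genes. With those summed, VIM-AS1 lay at -1.52, HNRNPUL2-BSCL2 at -1.32, TMX2-CTNND1 at -0.77 and SLC25A5-AS1 at -0.64. Of the 5 above, MALAT1, OIP5-AS1 and SNHG29 overlap other genes and lay at 1.12, 1.00 and 0.96 with them summed.

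Polymerase III RNAs gave the highest median among the lists with at least 5 genes tested. RN7SL1, the RNA of the signal recognition particle, had 2517 and 10682 reads (1.57, 1.51 to 1.64), RN7SK, which holds the elongation factor P-TEFb inactive, 496 and 1919 (1.44, 1.30 to 1.58), and RMRP, the RNA of RNase MRP, 42 and 143 (1.24, 0.75 to 1.79). RN7SL2 had 434 and 1240 reads (1.00), but reads of RN7SL1 and RN7SL2 may be divided between these near-identical copies, and RN7SL1 overlaps RPS29 (1.57 with both summed). RPPH1, the RNA of RNase P, had 76 and 212 reads (0.96). So 4 of 5 lay above and none below, with a median of 1.24 and a matched median of 2.07. The library labels name poly(A) RNA, and these RNAs carry no long poly(A) tail. How they entered the libraries was not tested.

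Ribosomal RNA genes were set apart because they hold most reads and because copies share them. On the same scale each 18S copy lay at 0.10. The 28S copies with most reads, RNA28SN3 and RNA28SN5, lay at -0.58 and -0.34. They held 29.5% and 20% of all IgG reads and 24.8% and 19.9% of EXOSC10 reads. RNA28SN1 and RNA28SN2, with 0.76% and 1.19% of the IgG reads, lay on the other side at 0.58 and 0.46. The 5.8S copies, whose precursor is trimmed at its 3′ end by EXOSC10 in the nucleolus, lay at 1.25, with 0.04% to 0.06% of the IgG reads and 0.13% to 0.18% of the EXOSC10 reads each. The 45S precursor copies lay between 0.38 and 0.90.

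Antisense readings need care. VIM-AS1 (chr10:17214239-17229985) had 1279 reads with IgG and no read with EXOSC10, at least 608-fold below the median gene against a floor of 3 reads. It overlaps VIM (chr10:17228241-17237593), which had 2893 and 2079 reads (-0.99), and with both summed the ratio was -1.52. Whether counting used the strand is not given in the sources used here, so their reads cannot be told apart. TMEM243, at 232 and 15 reads (-4.39), overlaps DMTF1 and lay at -2.54 with it. SLC25A5-AS1 at -1.75 became -0.64 with SLC25A5. DLG4, POTEJ and DNM1, named here after their values were seen because they stand at the low end, lay at -4.87, -4.74 and -4.69 with fractions of reads; DLG4 had 862 and 41.3 reads, DNM1 168 and 8.5, and POTEJ, which has near-identical copies, 348 and 17.8.

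Several metabolic and organelle lists had medians over the median gene. V-ATPase and lysosome genes, which acidify and fill the lysosome, had 18 tested, 7 above and none below, with a median of 0.90 (matched 0.90). LAMP2, a lysosomal membrane protein, had 23 and 144 reads (2.10, 1.49 to 2.84), and the cholesterol exporter NPC1 35 and 134 (1.40). Solute carriers had 45 tested, 15 above and 4 below, with a median of 0.77 (matched 0.72). The zinc importer SLC39A6 had 18 and 103 reads (1.95) and the choline transporter SLC44A1 314 and 125 (-1.84). Glycolysis had 17 tested, 6 above and 2 below, with a median of 0.71 (matched 1.01). HK1, the first enzyme, had 29.4 and 118 reads (1.46), and LDHA, the last, 163 and 516 (1.14). PKM, pyruvate kinase, stood below with 5736 and 3761 (-1.12), as did the glucose transporter SLC2A1 with 174 and 101 (-1.29). GAPDH had 1008 and 2122 reads (0.56).

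Fatty acid and lipid storage genes had 17 tested, 9 above and 2 below, with a median of 1.06 (matched 0.98). LPIN1, a phosphatidate phosphatase, had 16.6 and 92.8 reads (1.92), and the fatty acid desaturase FADS1 22 and 113 (1.81, or 1.31 with neighbouring FADS2 summed). FASN, fatty acid synthase, had 175 and 444 reads (0.83), and PLIN3, a lipid droplet coat protein, 37 and 111 (1.06). The 2 below were ACSL4, which activates arachidonate, with 445 and 153 reads (-2.04), and ACACA, acetyl-CoA carboxylase, with 200 and 133 (-1.10). Ceramide and sphingolipid genes had 7 of 26 entries tested, 3 above and 1 below, with a median of 0.45 (matched 0.62). The ceramide synthase CERS6 had 27 and 91 reads (1.21), CERS2 343 and 667 (0.45, 0.26 to 0.64), the ceramide kinase CERK 41 and 152 (1.36), and the sphingomyelin synthase SGMS1 144 and 62 (-1.72, -2.18 to -1.29). Cholesterol synthesis had 9 tested, none above and none below, between -0.63 and 0.99 (median 0.35, matched 0.46).

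The nuclear-encoded respiratory chain had members on both sides. Of 31 genes tested 10 lay above and 7 below, against 18.0% and 24.1% of all genes tested. The median was 0.59 and the matched median 0.13. SDHA, which oxidizes succinate, had 45 and 209 reads (1.68). ATP5MC3, a ring subunit of ATP synthase, had 2050 and 921 reads (-1.67, -1.78 to -1.55), and NDUFS4 of complex I 125 and 56.0 (-1.66). ATP5PD, at 20 and 113 reads, lay at 1.94, or 1.30 with KCTD2 summed.

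Proteasome subunits had 27 tested, 11 below and 2 above, with a median of -0.84 (matched -0.33). PSMD11 of the lid had 1627 and 566 reads (-2.03, -2.18 to -1.90), and PSMD8 41 and 136 (1.20). Rab GTPases, the switches of vesicle traffic, had 7 of 17 below and none above (median -0.68, matched -0.37), with RAB2A at 369 and 126 reads (-2.06). The cytoskeleton list had 32 tested, 12 below and 3 above, with a median of -0.67 but a matched median of 0.26. Its genes had a median of 2128 reads in the pair. S100A6, a calcium-binding protein, had 6023 and 2352 reads (-1.87), the actin monomer binder PFN1 5617 and 2422 (-1.73), and ACTB 1047 and 2285 (0.61). Chromatin remodellers and histone methylation enzymes had 11 of 43 below and none above, against 24.1% and 18.0% of all genes tested. Their median was -0.35 (matched -0.14). SUZ12, of Polycomb complex 2, had 593 and 166 reads (-2.34). In the cohesin and condensin list, with 5 of 12 below (median -0.70, matched -0.34), the loader NIPBL had 694 and 212 reads (-2.22, -2.45 to -2.0) and its partner MAU2 34 and 130 (1.40, 0.87 to 2.01). Of lists added after values were seen, F-box proteins, which pick substrates for ubiquitin ligases, had 8 of 12 below (median -1.33, matched -0.74), and UBE2 conjugating enzymes 13 of 24 below (-1.05, matched -0.20).

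Among signalling lists, Wnt and beta-catenin had 14 genes tested, 6 below and 1 above, with a median of -0.85 (matched -0.60). CTNNB1, beta-catenin (chr3:41199505-41240443), had 7276 reads with IgG and 1820 with EXOSC10 (-2.51, -2.59 to -2.44). The receptor FZD1 had 84 and 19 reads (-2.61), and the co-receptor LRP5 104 and 304 (1.03). TGF-beta and SMAD genes had 5 of 16 below and 2 above (median -0.55, matched -0.41). Its 3 ligands lay apart: TGFB1 had 49 and 176 reads (1.32, 0.87 to 1.82), TGFB2 20.6 and 99.1 (1.71, 1.06 to 2.51), and TGFB3 131 and 31 (-2.56, -3.21 to -2.02). For Hedgehog 2 genes were tested, the transducer SMO with 123 and 43 reads (-2.01, -2.57 to -1.52) and GLI3 with 42 and 68 (0.17, -0.39 to 0.77). Of the PD-L1 stabilisers and antigen presentation list 9 were tested, 4 above and none below, with a median of 0.71 (matched 0.57). The checkpoint protein CD276 had 16.2 and 99 reads (2.05), B2M, the light chain of MHC class I, 96 and 301 (1.13), and the PD-L1 stabiliser CMTM4 81 and 93 (-0.31, -0.76 to 0.13). Immediate early and AU-rich mRNAs, short-lived by nature, had 10 of 24 below and 4 above (median -0.50, matched -0.10); NFKBIA had 233 and 101 reads (-1.71) and the survival factor MCL1 117 and 351 (1.07).

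Further lists are given here mainly by their counts, to be read beside 18.0% above and 24.1% below over all genes tested. Of the 51 lists with at least 5 genes tested that were not added after values were seen, 28 medians lay over 0 and 23 under, 17 at 0.5 or more and 15 at -0.5 or less. DNA replication and repair genes had 15 tested, 6 above and 3 below (median 0.74, matched 0.48). Mitosis genes had 11 tested, 3 above and 1 below (0.60, matched 0.30): the survivin gene BIRC5 had 29 and 123 reads (1.54) and the DNA topoisomerase TOP2A 421 and 274 (-1.13). Collagen, laminin and integrin genes had 25 tested, 3 above and 1 below (0.51, matched 0.79), the one below being fibronectin, FN1, with 676 and 311 reads (-1.63, or -1.35 with overlapping ATIC). Cytosolic chaperones had 24 tested, 2 above and 2 below (0.40, matched 0.48); the co-chaperone STIP1 had 50.9 and 262 reads (1.83) and TCP1 of the chaperonin ring 1102 and 535 (-1.55). RNA polymerase II and Mediator genes had 35 tested, 2 above and 9 below (-0.42, matched -0.44), among them MED13 of the Mediator kinase module with 320 and 149 reads (-1.61). ZNF-named zinc fingers had 37 of 305 tested, 8 above and 8 below (0.56, matched 0.28). Variant histones had 3 of 6 below and 1 above (-0.83, matched -0.27), and replication-dependent histones 2 of 8 above and none below (0.33, matched 0.16). The nuclear pore and transport list had 36 tested, 7 above and 9 below (0.05, matched -0.11), with the import receptor IPO4 at 1.89 (20 and 109 reads) and its relative IPO7 at -1.45 (1365 and 713 reads). The lung metastasis genes known for LM2 cells had 6 tested, none above and none below (0.27, matched 0.35).

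Genes at the ends of the ranking were few in reads at the top and more abundant at the bottom. With whole reads in both libraries required, the 15 genes whose interval lay farthest above the median gene had 102 to 411 reads and ratios of 1.86 to 2.49. Among them were GRPEL1, ELFN2, PRAG1, TONSL, CSRNP3, MIA3, SDC4, MCM7, LAMP2, POLDIP3, WNK4, POR, PLIN4 and COX4I1. GRPEL1, a co-chaperone of mitochondrial import (chr4:7058895-7068064), had 11 and 93 reads (2.49, 1.66 to 3.62). TONSL, which guards stalled replication forks, had 18 and 132 (2.31), and the replicative helicase subunit MCM7 28 and 181 (2.15). POR, which passes electrons to cytochromes P450, had 28 and 167 (2.03). The wide intervals of these genes show how few IgG reads their ratios rest on.

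The 15 genes farthest below had 100 to 4710 reads and ratios of -3.99 to -2.23. Among them were WNT10A, SOCS3, GRIK5, IGFBP4, VPS25, DYRK1B, BLMH, TRIM8, RARA, CDK6, CAVIN1, DEDD, IER5L and HOXA5. WNT10A, a secreted Wnt ligand (chr2:218874116-218893928), had 98 and 8 reads (-3.99, -5.38 to -3.09), or 15.9-fold below the median gene. SOCS3, which shuts off cytokine receptors, had 89 and 11 (-3.43). IGFBP4, a secreted binder of insulin-like growth factors, had 675 and 126 (-2.93, -3.22 to -2.66). CAVIN1, a coat protein of caveolae, had 3732 and 978 (-2.44, -2.55 to -2.34), the retinoic acid receptor RARA 181 and 45 (-2.50), and the cell cycle kinase CDK6 285 and 73 (-2.47). GRIK5 overlaps ZNF574 and lay at -2.75 with it in place of -3.31.

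Position in the genome went with the ratio for some chromosomes. Genes of chromosome 19 had a median of 0.70 over 246 genes, with 72 above and 24 below, and those of chromosome 21 had 0.77 over 30 genes. Chromosome 15 lay lowest at -0.51 over 102 genes, followed by chromosome 17 at -0.46 over 285 genes, with 42 above and 96 below. In the doxycycline pair the same 4 medians were 0.34, 0.37, -0.56 and -0.24, each over that pair's own genes. The chromosome medians were not matched by reads. In the untreated pair, medians by the length of a gene on the genome spanned a smaller range. From the shortest of 5 classes to the longest, the median ratio went from 0.29 to -0.18. In the doxycycline pair the same classes went from -0.13 to -0.96. Promoter GC content, known for 82.7% of the genes tested, left the medians between -0.17 and 0.09, with a Spearman correlation of 0.04, given as a description.

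The doxycycline pair, which shares no library with the untreated one, ordered the genes much the same way. There 6257 genes had 100 reads; 758 (12.1%) lay above that pair's median gene and 1690 (27.0%) below. Over the 3577 genes tested in both, the Spearman correlation of the ratios was 0.82, a description over genes that are not independent. These shared genes had a doxycycline median of -0.55, and 62.8% lay under that pair's zero, so on this scale low calls come more easily than high ones. Of the 866 genes below in untreated cells 857 were tested with doxycycline. On the same side were 852 (99.4%), and 788 (91.9%) were again at least 2-fold below. Of the 648 above, 645 were tested, 542 (84.0%) lay on the same side and 81 (12.6%) were again at least 2-fold above. Their doxycycline medians were -2.06 and 0.49. With the doxycycline zero moved to the median of the shared genes, a setting chosen after seeing the data, 829 (96.7%) of the 857 lay on the same side and 649 (75.7%) were 2-fold below, against 27.9% of all shared genes. Of the 645, 628 (97.4%) then lay on the same side and 343 (53.2%) were 2-fold above, against 21.4% of all shared genes.

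Several genes low in untreated cells were low with doxycycline too, relative to that pair's own median gene: PCBP2 lay at -3.04, PABPC1 at -2.71, CTNNB1 at -2.73, EEF1A1 at -2.39, SMO at -3.03 and CAPRIN1 at -1.46. Others among the lowest untreated genes came nearer to the median gene, with VPS25 at -0.96, IGFBP4 at -0.90, CDK6 at -0.10 and FZD1 at 0.04. On the high side SDHA kept 1.66 and TONSL 1.46, while LAMP2 lay at 0.66, MALAT1 at 0.59 and NEAT1 at 0.52. Some genes changed sides by 2-fold or more. RN7SL1 lay at -1.87 and RN7SK at -1.03 with doxycycline, after 1.57 and 1.44. Of genes named after their values were seen, the scaffold kinase CASK went from 1.14 to -3.56, ANKHD1 from 1.18 to -2.13 and the keratin KRT17 from 1.29 to -1.45. TMEM243 went from -4.39 to 1.56. Whether these differences exceed the spread between libraries of 1 kind was not tested, since there is none.

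**Figure D5:**
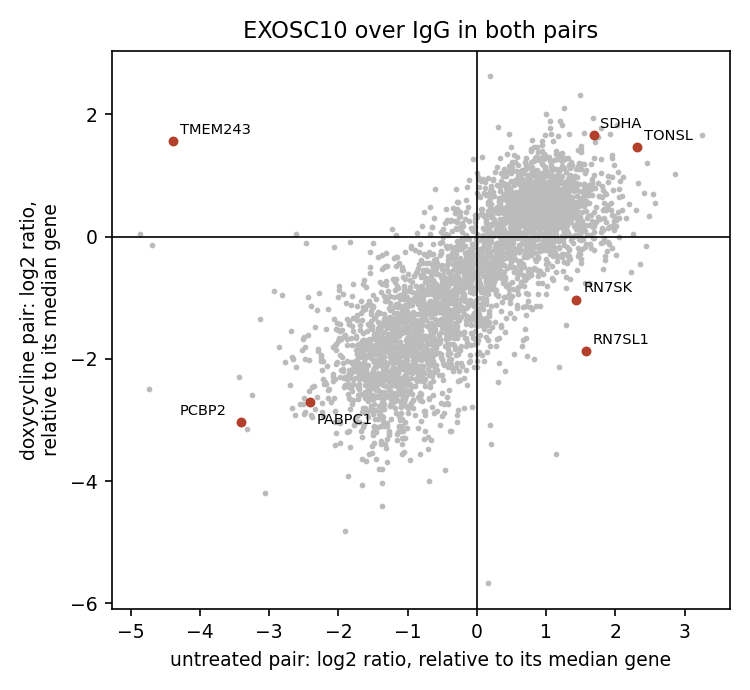
Log2 ratio of EXOSC10 over IgG in the untreated pair (horizontal axis) and the doxycycline pair (vertical axis), each relative to its own median gene, for the 3577 genes with 100 reads in both pairs (VIM-AS1 is outside the axis). Each point is 1 gene and red points are named genes. Most genes lie along a band from lower left, with PCBP2 at -3.40 and -3.04, to upper right, with TONSL at 2.31 and 1.46, while RN7SK, RN7SL1 and TMEM243 lie off it.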

How the data were processed

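RNA immunoprecipitates of LM2-4175 cells were sequenced, with 1 library for each of 4 groups; groups were taken from the sample titles. Per the labels' protocols, RNA was isolated in Qiazol and SMARTer mRNA-Seq libraries were built from it. STAR, Partek and genome build hg38 are named per the submitters' processing notes, without versions or settings. How reads were counted, and whether by strand, is not given in the sources used here. As deposited, the authors' values are CPM, reads scaled to 1000000 per library, although it is named as raw counts: each column summed to that total and carried a constant of 0.0001 on each entry, which was taken off. Its 24015 entries were summed over 12838 gene symbols, of which 18 are ribosomal RNA genes. Every entry reached at least 10.0 reads in a library, so lower genes were not analysed here. Of the other symbols, 12527 matched a current and 194 an older symbol of the RefSeq table for GRCh38.p14, and 99 matched none; coordinates and gene classes are from that table.

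Low values lay on steps worth 1 read, 0.269 CPM for untreated IgG and 0.236 CPM for untreated EXOSC10, and reads were estimated as CPM over this step: 3723294 and 4233602 in all, and 7575132 and 5511216 for doxycycline IgG and EXOSC10. Gene sums within 0.05 of a whole read made up 67.7% to 74.0% of genes in a library, and 65.2% of the genes tested were whole in both libraries of the pair. Others hold fractions, so no count model was run, and with 1 library per group no test was possible. Ratios used a pseudocount of 0.2 CPM, which understates ratios of low genes. PCR copies cannot be told from separate molecules here, so intervals and floors cover counting error only. A fold against no read used a floor of 3 reads. Nothing separates fewer transcripts per cell from fewer cells in a bulk sample. The ratio, interval and step estimates were tested on simulated data.

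The comparison, the 60 gene lists and the rule for named genes were chosen with earlier results of these data known; 6 lists were added after values were seen. The rule named CERS4, CD274, CAPRIN1 and EXOSC10, the 15 genes each way with the interval farthest from 0 at its nearer bound, among genes with 100 whole reads, the 2 highest and 2 lowest members of each list, and the 5 highest and 5 lowest long non-coding RNAs. Genes outside that rule, such as PABPC1, GAPDH, ACTB, VIM, RPL15, FASN and CASK, were named after their values were seen. A few genes that the rule named are not reported here. Alternatives were other scalings, pseudocounts, minimums, whole reads only, overlapping genes summed and a zero by abundance. Python 3.11.15, pandas 2.3.3, numpy 2.4.6, scipy 1.17.1 and matplotlib 3.10.9 were used.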

Additional observations from a re-analysis of the deposited data

Results flagged for a closer look

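Of the genes chosen by the rule for named genes that lay at least 2-fold from the median gene in untreated cells, 4 had a doxycycline counting interval wholly on the other side of that pair's median gene. The median of 1 list at least 2-fold from zero also changed sides. None of these differences was tested, since each pair has 1 library a side. With doxycycline, RN7SL1 had a ratio of -1.87, RN7SK -1.03 and RN7SL2 -0.45, against 1.57, 1.44 and 1.00 in untreated cells. The median of the polymerase III RNA list moved with them, from 1.24 to -0.45. TMEM243 had -4.39 untreated and 1.56 with doxycycline, with fractions of reads and an overlap with DMTF1. In reads, RN7SL1 had 2517 with IgG and 10682 with EXOSC10 in untreated cells.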

How the results depend on the processing

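No paired analysis was possible because the labels give no replicate numbers and each group has 1 library, and no library could be left out. The counts of genes 2-fold from zero, 648 above and 866 below untreated, 758 and 1690 with doxycycline, depend on where zero is set. Untreated, they were 172 and 1340 with TMM factors over the 4 libraries, 172 and 1340 with TMM of the pair alone, 1123 and 523 with total reads, 1377 and 304 with the total outside ribosomal RNA, 192 and 1304 with median-of-ratios factors, and 285 above with the upper quartile. With a zero at genes of like abundance 576 lay below. With doxycycline they were 5070 and 33 with total reads and 3211 and 654 with the total outside ribosomal RNA. Fewer or more genes tested gave 1331 and 2024 at a minimum of 20 reads (doxycycline 2006 and 2622), 162 and 27 at 500 (491 and 367), and 375 and 531 with whole reads only (413 and 1023). Of 210 named genes that were 2-fold from the median gene, 163 remained so with TMM factors, 199 with total reads, 181 with the total outside ribosomal RNA, 167 with median-of-ratios factors, 178 with the upper quartile and 134 against genes of like abundance. At a minimum of 20 reads 162 of the 210 were still 2-fold from the median gene. At 500 reads 70 of them were still tested and 20 were 2-fold away. The scalings with a single zero for all genes moved that zero by at most 0.55 (log2). None of these scalings could thus turn a sign among the 210 genes. CCT4 turned to 0.0089 and ETF1 to 0.0016 at 500 reads, as did the hnRNP median, to 0.0078. CCT4 lay at 0.0009 against genes of like abundance, and MRPL37 at -0.22 with overlaps summed. Of 57 list medians, 46 kept their sign with TMM factors and 49 against genes of like abundance. At a minimum of 20 reads 49 of 57 did, and at 500 reads 40 of 54. The TMM run of the pair alone, the zero by abundance and the doxycycline zero at the shared genes were chosen after seeing the data. The 1052991 IgG and 1023363 EXOSC10 reads outside ribosomal RNA limit what can be said of rare RNAs, the exosome's own mRNAs included.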
